A study of Mus musculus with 12 samples.

Results

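Antibody heavy chains carrying an IGHM or IGHD constant region were read from the B cell receptor libraries of 4 groups of mouse aortas, and their V genes, their J genes and the third complementarity-determining region (CDR3) were counted. The members were productive heavy chain contigs, 1 per cell barcode, taken as the contig with the most unique molecular identifiers (UMIs), with IGHM or IGHD named as the constant gene. They numbered 3223 of 4083 barcodes with a productive heavy chain. Of these, 2061 of 2562 came from the library labelled Healthy, 109 of 288 from AS, 50 of 126 from MTZ-treated and 1003 of 1107 from MTZ-preventive. The rest carried a switched constant gene or none.

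The mice of every group were labelled ApoE-/-, a genotype that disrupts the gene of apolipoprotein E and raises plasma cholesterol. They were 8 weeks old at the start and had 24 weeks of feeding. By the study's methods the group labelled Healthy ate a normal diet and was dosed with saline. The AS group received saline and a high-fat food with 1% cholesterol and 10% fat. Mice of the MTZ-treated group ate the same food and, after a first period on saline, received methazolamide (MTZ), a carbonic anhydrase inhibitor, at 25 mg/kg for 12 weeks once atherosclerosis (AS) was present. In the MTZ-preventive group the food and MTZ at 25 mg/kg were given together for 24 weeks. Each group was 1 pool of 6 aortas and gave 1 receptor library and 1 gene expression library. No difference between groups could therefore be tested, and all intervals are 95% intervals that cover counting error only. Where a count was 0, the share that 3 counts would have made is given as the limit. Barcodes that share a chain are not independent, so each share was also counted over distinct chains, where a chain is a V gene with a CDR3 amino acid sequence. Fewer B cells and less antibody RNA per cell cannot be told apart in such counts.

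A heavy chain is built when a developing B cell joins 1 V, 1 D and 1 J gene segment, trimming the ends and adding bases between them. The CDR3 spans that junction and is the most variable part of the antigen-binding site. IGHM and IGHD are made before class switching, so chains that carry them come mostly from naive, marginal zone and B-1 B cells, or from IgM-secreting plasma cells. B-1 cells, which make much of the natural IgM in the mouse, reuse a small set of V genes, among them IGHV11-2 and IGHV12-3, whose antibodies bind phosphatidylcholine.

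The libraries differed strongly in the heavy chain UMIs that their members held. These were 12832 for the library labelled Healthy, 239 for AS, 111 for MTZ-treated and 16698 for MTZ-preventive. In MTZ-preventive, 2 single chains held 2838 and 2733 of them. The totals follow the number of barcodes and such chains, and are not a measure of sequencing depth. The median was 2 UMIs a member for the library labelled Healthy, 1 for AS, 2 for MTZ-treated and 2 for MTZ-preventive. A single UMI supported 29.6%, 53.2%, 44.0% and 26.1% of members in the same order. Of the members, 98.6%, 14.7%, 64.0% and 96.4% had a barcode listed in the gene expression matrix of their group. In AS this left 16 barcodes, of which 7 had a Cd79a UMI (43.8%, 19.8 to 70.1) against 1.73% of the other barcodes. The neutrophil gene S100a8 had a UMI in 9 of the 16 (56.3%, 29.9 to 80.2) against 43.2% of the others. S100a9, also a neutrophil gene, was no more frequent, in 8 of the 16 (50%) against 50.6%. Cd79a, a subunit of the B cell receptor, had a UMI in 93.6% of members of the library labelled Healthy, 84.4% in MTZ-treated and 84.1% in MTZ-preventive, against 32.5%, 2.18% and 13.1% of other barcodes. Median gene expression UMIs of members were 2083, 1173, 1453 and 1711, against 1090, 874, 794 and 1347 in other barcodes. The group labelled Healthy went against its genotype label. An Apoe UMI was in 33.6% of its gene expression barcodes, against 1.24% for AS, 1.34% for MTZ-treated and 1.79% for MTZ-preventive. Diet and genotype therefore cannot be told apart in comparisons with the library labelled Healthy. No receptor barcode was shared between libraries except 2 of the library labelled Healthy and MTZ-preventive, with different chains. Between 209 and 805 gene expression barcodes were shared by each pair of libraries.

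The J gene can be read from the 3′ end of the CDR3. The following ends give the commonest base at each position over the distinct chains of each J gene, read back from the conserved tryptophan codon for as long as it was in most chains. Capitals in the sequences that come later mark the bases that match these ends, up to the first mismatch from the 3′ end.
IGHJ1: ACTGGTACTTCGATGTCTGG
IGHJ2: CTACTTTGACTACTGG
IGHJ3: CTGGTTTGCTTACTGG
IGHJ4: ACTATGCTATGGACTACTGG

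The largest chain of each library is shown next, because single chains set much of the usage counted per barcode. Lower case marks the bases before that match.
Healthy IGHV2-9 with IGHJ2: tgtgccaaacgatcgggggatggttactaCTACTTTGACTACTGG
AS IGHV1-39 with IGHJ1: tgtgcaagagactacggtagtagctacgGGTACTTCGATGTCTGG
MTZ-treated IGHV9-3 with IGHJ3: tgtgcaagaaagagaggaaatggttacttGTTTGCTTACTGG
MTZ-preventive IGHV14-3 with IGHJ2: tgtgctagacacgaCTACTTTGACTACTGG

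These chains were found in 30 of 2061, 31 of 109, 15 of 50 and 30 of 1003 barcodes. Only 15 distinct chains made up the 109 AS barcodes, and 34 made up the 50 of MTZ-treated. The library labelled Healthy held 1941 distinct chains and MTZ-preventive 900. The chance that a pair of barcodes of 1 library held the same chain was 0.0410%, 18.3%, 8.73% and 0.166% in that order. Chains found in 5 or more barcodes numbered 7, 5, 1 and 6, and held 4.22% (3.39 to 5.18), 87.2% (79.4 to 92.8), 30.0% (17.9 to 44.6) and 8.97% (7.28 to 10.9) of barcodes.

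The large chains were of unlike kinds. The IGHV14-3 chain of MTZ-preventive had a median of 95 UMIs a barcode, and all 30 barcodes had a UMI of Jchain, which joins IgM pentamers and is made by antibody-secreting cells. The IGHV1-5 chain of the same library had a median of 133 UMIs and Jchain in 19 of its 19 barcodes with gene expression. In the library labelled Healthy, the IGHV2-9 chain had a median of 45 UMIs, with Jchain in 29 of 29 although 3 of these passed the study's limits on genes and UMIs, and an IGHV11-2 chain of 24 barcodes had a median of 58 and a highest value of 691, with Jchain in 24 of 24. The IGHV1-22 chain of MTZ-preventive, in 7 barcodes, had a median of 147 UMIs and Jchain in 7 of 7. An IGHV1-39 chain of the library labelled Healthy, in 5 barcodes, had a median of 28 UMIs and Jchain in 5 of 5.

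The remaining large chains had few UMIs, and those of the 2 large libraries among them had no Jchain. The IGHV2-2 chain of the library labelled Healthy held a median of 2.5 UMIs over 12 barcodes, and the IGHV2-3 chain of MTZ-preventive a median of 2 over 12. The AS chains were of low UMI number and mostly outside the gene expression barcodes. The AS IGHV1-39 chain had a median of 3 UMIs in 31 barcodes, none of them in the gene expression matrix. Of the 29 barcodes with the leading IGHV1-26 chain, 23 had 1 UMI and 5 were in the matrix, 3 of these with Jchain and none with Cd79a. Of the 15 barcodes with the IGHV1-26 chain of IGHJ3, 2 were in the matrix, neither with Jchain. Of the 7 barcodes with the IGHV1-26 chain of IGHJ4, 1 was in the matrix, with Jchain. The IGHV3-6 chain, in 13 barcodes, had none in the matrix. In MTZ-treated, 2 of the 15 barcodes with the IGHV9-3 chain were in the matrix, both with Jchain. Most of these chains came with 1 main light chain gene. It was IGKV17-121 in 31 of 31 barcodes for the AS IGHV1-39 chain and IGKV8-24 in 15 of 15 for the IGHV9-3 chain. The most frequent one was IGLV1 in 8 of 12 barcodes for the IGHV2-3 chain of MTZ-preventive. For an IGHV6-3 chain of the library labelled Healthy it was IGKV19-93 in only 2 of 5. Each large chain had 1 nucleotide sequence in all its barcodes, and no pair of barcodes with the same large chain had barcode letters within 1 base of each other. Markers of other cell types stood in several of these sets of barcodes. Col1a1, a collagen of fibroblasts, had a UMI in 23 of the 24 barcodes with the larger IGHV11-2 chain, 6 of 6 with the smaller one and 12 of 12 with the IGHV2-2 chain of the library labelled Healthy, against 11.6% of all its members. Dcn, another fibroblast gene, was in 23 of 24 and 6 of 6 for the IGHV11-2 chains. For the IGHV2-2 chain it was in only 2 of 12, against 8.02% of all members. Pecam1, an endothelial gene, had a UMI in 17 of 30 barcodes with the IGHV14-3 chain and 8 of 10 with the IGHV12-3 chain of MTZ-preventive, against 16.5% of its members. The other endothelial gene looked at, Cdh5, was in 3.31% of all MTZ-preventive members and was not counted by chain. Only 2 of the 29 barcodes with the IGHV2-9 chain had Col1a1. What part free RNA, droplets without a single cell or mixed droplets had in these counts was not tested.

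**Figure D1:**
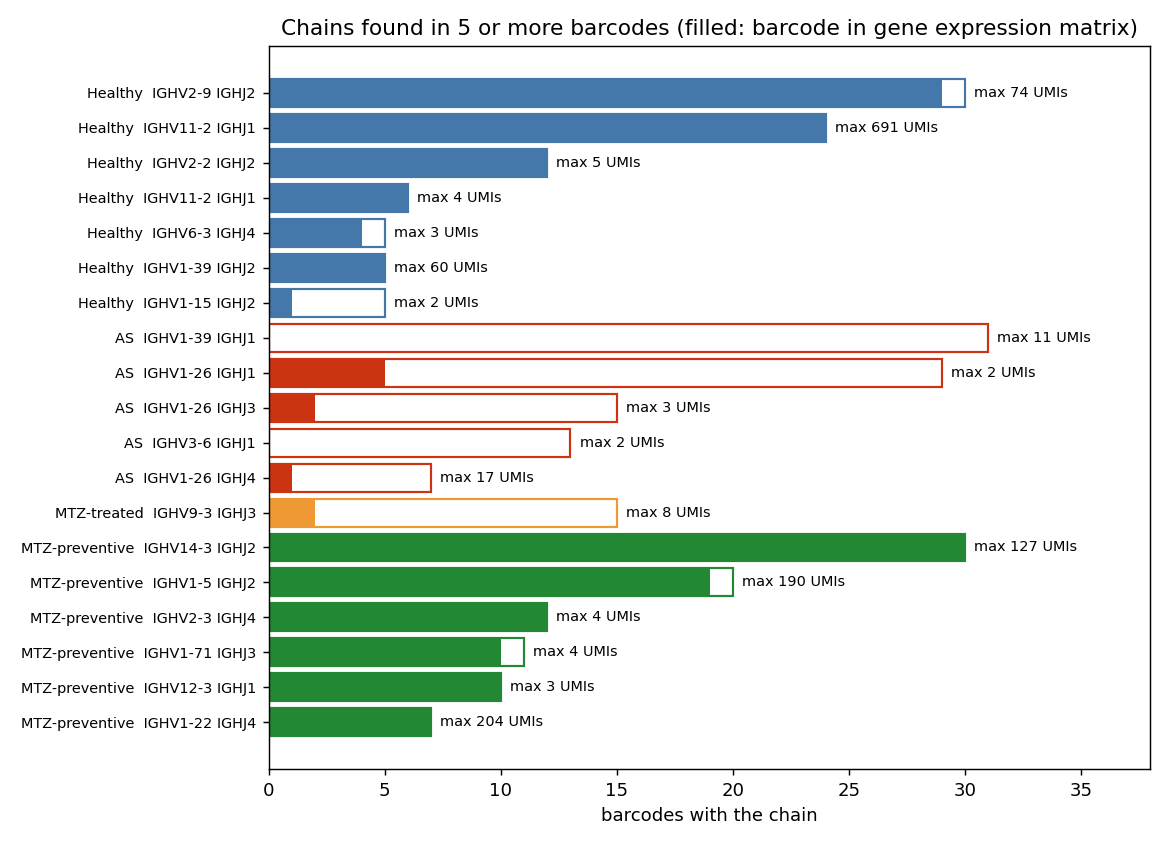
Barcodes (x axis) with each of the 19 chains found in 5 or more barcodes, by library and V and J gene. The filled part of each bar is the barcodes listed in the gene expression matrix, and the label gives the highest UMI count of a barcode. AS bars are almost empty (0 of 31, 5 of 29, 2 of 15, 0 of 13 and 1 of 7), while most bars of the library labelled Healthy and of MTZ-preventive are filled.

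Across the V families, IGHV1 (the J558 family, the largest of the mouse) led per barcode in 3 libraries, and in MTZ-treated it came after IGHV9. It took 57.1% of barcodes for the library labelled Healthy (54.9 to 59.2), 84.4% for AS (76.2 to 90.6), 20% for MTZ-treated (10.0 to 33.7) and 55.8% for MTZ-preventive (52.7 to 58.9). Counted over distinct chains the shares were 59.0% (56.8 to 61.2), 73.3% (44.9 to 92.2), 29.4% (15.1 to 47.5) and 57.3% (54.0 to 60.6). The order of the libraries was thus the same in both counts, with AS highest and MTZ-treated lowest.

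The question of the AS comparison was whether high-fat feeding went with another choice of V gene. AS lay above the library labelled Healthy in IGHV1 by 27.3 percentage points per barcode (19.1 to 33.4). Over distinct chains the difference was 14.3 points with an interval of -11.0 to 30.3, so at 15 chains no difference was detectable. Without the 5 large chains AS had IGHV1 in 10 of 14 barcodes, or 71.4% (41.9 to 91.6). IGHV1-26 took 48.6% of AS barcodes against 4.80% in the library labelled Healthy. It also took 5 of the 15 distinct AS chains, or 33.3% (11.8 to 61.6), against 5.05% (4.12 to 6.12), a difference of 28.3 points (10.1 to 53.3). Among the 14 AS barcodes outside the large chains it had 14.3% (1.78 to 42.8), against 5.02% in the library labelled Healthy counted alike. IGHV1-26 was the most used gene of AS, and the intervals do not allow for its choice on that ground. That gene lies at chromosome 12, 114788372 to 114788665 (GRCm38.p6).

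The MTZ-treated share of IGHV1 minus that of AS was -64.4 points per barcode (-74.8 to -49.1) and -43.9 over distinct chains (-64.1 to -13.6). It lay below MTZ-preventive by 35.8 points per barcode (22.4 to 45.1) and by 27.9 over distinct chains (10.9 to 40.9). The difference per barcode was 15.9 points (-4.47 to 33.2) among barcodes within the study's limits on UMIs and genes, of which MTZ-treated held 23. The room left by IGHV1 in MTZ-treated was spread over several families. IGHV9 rested on a single chain, with 30.0% of barcodes and 2.94% of distinct chains. IGHV12 had 12% of barcodes and 11.8% of distinct chains (3.30 to 27.5). Its share of distinct chains was 0.333% in MTZ-preventive (0.0688 to 0.971) and 0.206% in the library labelled Healthy (0.0562 to 0.527). The MTZ-treated IGHV12 barcodes held 1 UMI each except for 1 with 3 UMIs, and 2 of their chains differed by 1 base. IGHV5 had 10.0% of barcodes and 14.7% of distinct chains (4.95 to 31.1), against 8.11% and 8.19% of distinct chains in the 2 large libraries.

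The MTZ-preventive share of IGHV1 minus that of AS was -28.6 points per barcode (-35.0 to -20.0) and -16.0 over distinct chains (-32.1 to 9.48). Its share was close to that of the library labelled Healthy, a comparison added after the values were seen. The difference was -1.23 points per barcode (-4.98 to 2.50) and -1.66 over distinct chains (-5.57 to 2.22). The share of chains that would have to change family to make both libraries alike was 5.98% per barcode and 3.998% over distinct chains. The same measure was 34.2% and 22.8% for AS against the library labelled Healthy, and 44.5% and 36.6% for MTZ-treated against it. Small libraries raise this measure by counting error alone.

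The other families of the library labelled Healthy and MTZ-preventive took similar shares of distinct chains. IGHV2 had 6.34% and 7.89%, IGHV5 8.19% and 8.11%, IGHV8 5.67% and 5.22%, IGHV3 5.15% and 4.33%, IGHV9 4.33% and 4.44%, and IGHV6 3.04% and 3.44%. IGHV14 differed per barcode, at 2.23% against 6.18%, a difference of 3.95 points (2.43 to 5.70). The difference was 1.30 points over distinct chains (-0.00447 to 2.85), and 30 of its 62 MTZ-preventive barcodes held the 1 chain printed first for that library. IGHV11 went the other way, at 1.80% of barcodes against 0.199%, and at 0.464% against 0.222% of distinct chains. IGHV4, IGHV13 and IGHV15 stayed at or under 1.11% of distinct chains in both. AS had no member of 10 families, which 15 chains could hardly show, since 3 counts of 15 would be a share of 20%. IGHV4, IGHV6, IGHV7 and IGHV15 were not seen in MTZ-treated, where 3 counts of 34 would be 8.82%.

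**Figure D2:**
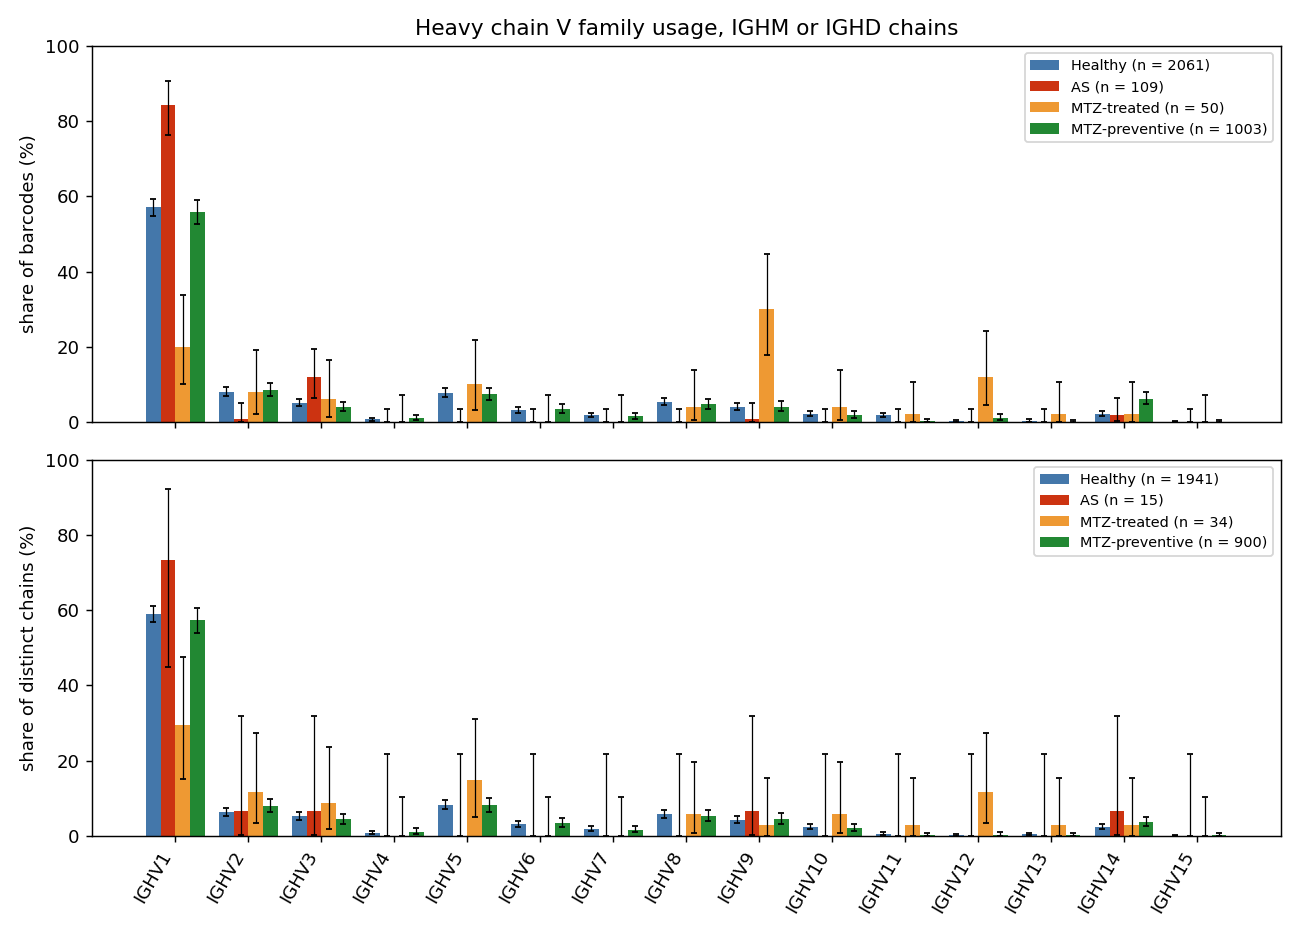
Share of barcodes (upper) and of distinct chains (lower), in percent, for the 15 V families in the 4 libraries, with exact 95% binomial intervals as bars. IGHV1 stands at 84.4% of AS and 20% of MTZ-treated barcodes, and the IGHV9 bar of MTZ-treated falls from 30.0% of barcodes to 2.94% of distinct chains.

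At the level of single V genes the large libraries were broad. The library labelled Healthy used 92 V genes, AS 11, MTZ-treated 27 and MTZ-preventive 83. The 5 most used of the library labelled Healthy (IGHV1-26, IGHV3-6, IGHV1-81, IGHV8-8 and IGHV1-15) took 19.8% of its distinct chains, and the 5 of MTZ-preventive (IGHV1-64, IGHV1-80, IGHV1-81, IGHV1-82 and IGHV1-15) took 17.3%. IGHV1-81 had 3.71% and 3.44% of distinct chains, and IGHV1-15 had 3.30% and 3.22%. IGHV1-26, first in the library labelled Healthy at 5.05%, had 2.89% in MTZ-preventive, a difference of -2.16 points (-3.56 to -0.58). IGHV3-6 had 4.33% and 2.78% (difference -1.55, -2.89 to -0.02). Both were named as the most used genes of the library labelled Healthy. That choice favours a lower share in the other library, and the intervals do not allow for it. IGHV1-64, first in MTZ-preventive, had 3.67% there and 3.14% in the library labelled Healthy. In MTZ-treated the leading gene was IGHV12-3 with 4 of 34 chains, followed by IGHV3-6 with 3. All AS genes other than IGHV1-26 had 1 chain each (10 genes), as had 23 genes of MTZ-treated.

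The V gene named by the contig was checked against the gene expression library. Among barcodes with a single leading Ighv gene there, the same gene led in 1764 of 1786 of the library labelled Healthy (98.8%), 16 of 16 of AS, 29 of 29 of MTZ-treated and 791 of 800 of MTZ-preventive (98.9%).

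The V genes lie in a row upstream of the J genes, with IGHV5 and IGHV2 genes nearest and most IGHV1 genes farthest away. All 94 V genes seen were placed on chromosome 12 of GRCm38.p6, between 149 and 2570 kb from IGHJ1 (113429781 to 113429833), and the nearest IGHV1 gene stood 1039 kb away. V genes nearer than that gave 33.0% of distinct chains for the library labelled Healthy (30.9 to 35.1), 26.7% for AS (7.79 to 55.1), 58.8% for MTZ-treated (40.7 to 75.4) and 35.3% for MTZ-preventive (32.2 to 38.6). The median distance was 1359, 1359, 937 and 1316 kb. MTZ-treated thus drew more of its chains from the near part of the locus. No IGHV1 gene lies in that part, so this share and the IGHV1 share are not independent. They are not full complements where IGHV8, IGHV10 or IGHV15 genes were used, since these lie among the IGHV1 genes. IGHV5-2 (81X), the nearest V gene seen and often joined in fetal life, was seen in 1 chain of MTZ-preventive and in none of the other libraries. IGHV2-2, next to it, gave 2.11% of distinct chains in both the library labelled Healthy (41 chains) and MTZ-preventive (19 chains), and 1 chain each in AS and MTZ-treated.

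**Figure D3:**
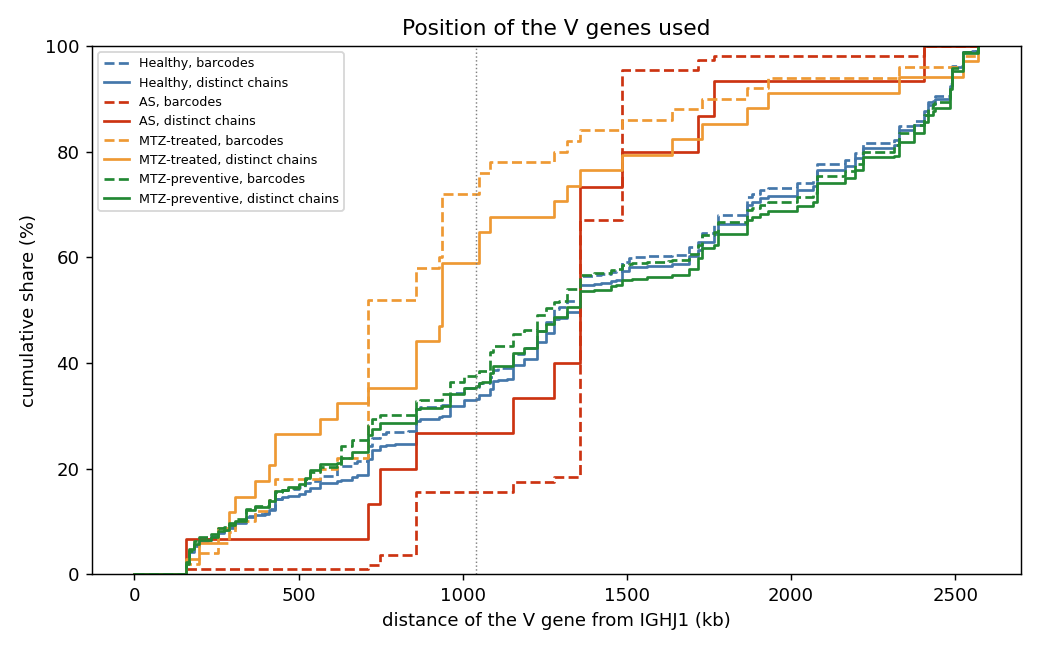
Cumulative share (y axis, percent) of barcodes (dashed) and distinct chains (solid) by the distance of their V gene from IGHJ1 (x axis, kb), with a dotted line at the nearest IGHV1 gene, 1039 kb away. The curves of the library labelled Healthy and MTZ-preventive run together, AS steps up at IGHV1-26 (1359 kb) and IGHV1-39 (1485 kb), and MTZ-treated rises early.

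J genes were used alike in the 2 large libraries. Over distinct chains, IGHJ2 led with 30.2% in the library labelled Healthy (28.2 to 32.3) and 29.8% in MTZ-preventive (26.8 to 32.9). IGHJ4 followed with 28.5% and 27.6%, IGHJ3 with 23.4% and 23.2%, and IGHJ1 with 17.9% and 19.4%. The share that would have to change J gene was 1.02% per barcode and 1.52% over distinct chains.

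In AS, IGHJ1 took 70.6% of barcodes (61.2 to 79.0) against 18.4% in the library labelled Healthy, a difference of 52.2 points (42.9 to 60.1). Of the 5 large AS chains, those of IGHV1-39 and IGHV3-6 and the leading one of IGHV1-26 carried it. Over distinct chains it took 6 of 15, or 40.0% (16.3 to 67.7), 22.1 points above the library labelled Healthy (1.82 to 46.4). Without the large chains it took 28.6% (8.39 to 58.1). IGHJ2 was at 4.59% of AS barcodes and 26.7% of its distinct chains. Its difference from the library labelled Healthy was -26.8 points per barcode (-30.1 to -20.8), -3.52 over distinct chains (-19.4 to 21.8), and 5.57 with the large chains left out (-13.9 to 31.2), so its direction turned on those chains. The same held for IGHJ2 of MTZ-preventive against AS, at 27.7 points per barcode (21.4 to 31.7) and -5.70 with the large chains left out, and of MTZ-treated against AS, at 19.4 (8.16 to 33.1) and -1.43.

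MTZ-treated had IGHJ3 in 48.0% of barcodes (33.7 to 62.6), of which 15 of 24 held the IGHV9-3 chain, and in 29.4% of distinct chains (15.1 to 47.5). IGHJ4 was at 10.0% of its barcodes and 14.7% of its distinct chains (4.95 to 31.1), against 27.6% of distinct chains in MTZ-preventive, a difference of 12.9 points (-2.83 to 21.6).

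**Figure D4:**
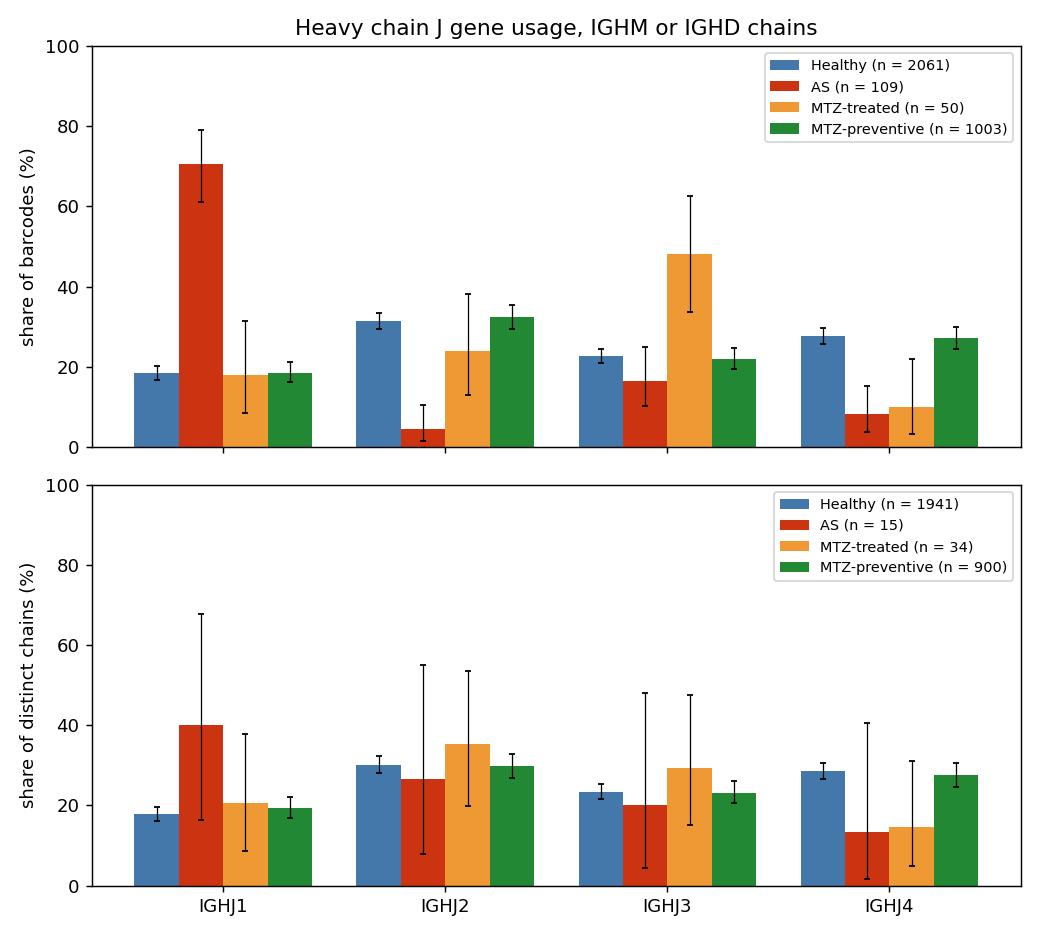
Share of barcodes (upper) and distinct chains (lower), in percent, for the 4 J genes in each library, with exact 95% binomial intervals. IGHJ1 of AS falls from 70.6% of barcodes to 40.0% of distinct chains and IGHJ3 of MTZ-treated from 48.0% to 29.4%, while the bars of the 2 large libraries barely move.

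Within families the J genes were not evenly joined. IGHV2 chains carried IGHJ4 in 45.5% (36.5 to 54.8) of 123 chains in the library labelled Healthy and in 42.3% (30.6 to 54.6) of 71 in MTZ-preventive, where IGHV1 chains carried it in 26.9% (24.4 to 29.6) and 25.8% (22.0 to 29.8). IGHJ1 was in 8.94% and 14.1% of IGHV2 chains, against 16.6% and 19.4% of IGHV1 chains. IGHV14 chains went apart between the libraries, with IGHJ2 in 43.5% of 46 chains of the library labelled Healthy (28.9 to 58.9) and in 12.1% of 33 of MTZ-preventive (3.40 to 28.2). IGHJ3 showed the reverse in this family, at 13.0% (4.94 to 26.3) and 45.5% (28.1 to 63.6). The families named here are a selection from all families and J genes, and the intervals do not allow for that choice.

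CDR3 length, counted in amino acids with the conserved cysteine and tryptophan included, had nearly the same mean in each library. Its shape per barcode was alike in the 2 large libraries and different in AS and MTZ-treated. Means over barcodes were 14.2 ± 2.67 (SD over 2061 barcodes) for the library labelled Healthy, 14.1 ± 3.08 (109) for AS, 14.0 ± 1.79 (50) for MTZ-treated and 13.9 ± 2.63 (1003) for MTZ-preventive. Over distinct chains they were 14.2 ± 2.71, 14.1 ± 2.74, 14.0 ± 2.18 and 14.1 ± 2.60. The largest difference between library means was -0.288 amino acids per barcode, for MTZ-preventive minus the library labelled Healthy, and it was -0.139 over distinct chains. The AS barcodes stood in 3 peaks at 10, 15 and 18 amino acids, the lengths of its large chains, and 50% of MTZ-treated barcodes had 14. Short CDR3s, of 11 or fewer amino acids, made up 14.4% of distinct chains in the library labelled Healthy (12.9 to 16.1) and 13.9% in MTZ-preventive (11.7 to 16.3), and long ones, of 17 or more, 19.0% (17.2 to 20.8) and 18.1% (15.6 to 20.8).

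Length followed the J gene in both large libraries. IGHJ1 chains had 15.3 ± 2.47 amino acids in the library labelled Healthy and 15.2 ± 2.35 in MTZ-preventive, and IGHJ4 chains 15.1 ± 2.57 and 14.7 ± 2.59. Those with IGHJ2 had 13.3 ± 2.54 and 13.2 ± 2.38, and those with IGHJ3 13.6 ± 2.65 and 13.5 ± 2.53. The J ends printed above have 20 bases for IGHJ1 and IGHJ4 and 16 for IGHJ2 and IGHJ3. Bases that matched these ends averaged 18.3 and 18.2 for IGHJ1 against 12.9 and 13.0 for IGHJ2. The bases before them averaged 27.8 and 27.4 against 26.9 and 26.6. The whole printed end was matched in 40.4% (38.2 to 42.7) of distinct chains of the library labelled Healthy and 39.4% (36.2 to 42.7) of MTZ-preventive. No germline J sequence was used, so any J bases beyond the printed ends count among the bases before them. By family, IGHV8 chains were the longest of those with 30 or more chains in both libraries, at 15.8 ± 2.23 and 15.1 ± 1.86, while IGHV6 chains averaged 13.0 ± 3.18 and 12.2 ± 2.30.

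**Figure D5:**
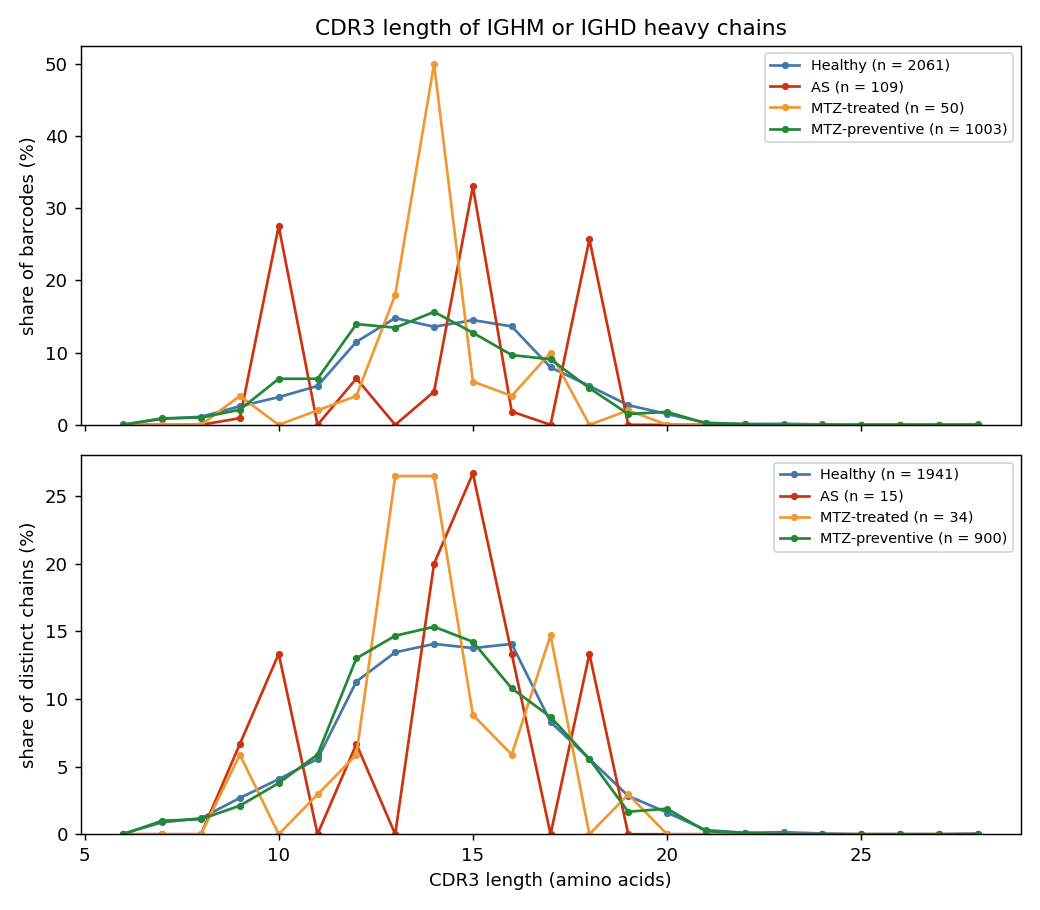
Share of barcodes (upper) and distinct chains (lower), in percent, by CDR3 length in amino acids for the 4 libraries. The library labelled Healthy and MTZ-preventive follow 1 broad curve around 14 amino acids, and the AS barcodes stand at 10, 15 and 18.

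Chains of IGHV11-2 and IGHV12-3, genes that B-1 cells reuse, were a small share of the 2 large libraries. Both genes were seen in every library but AS, in different numbers. Single chains made up most barcodes of IGHV11-2 in the library labelled Healthy and of IGHV12-3 in MTZ-preventive. IGHV11-2 (chromosome 12, 114048241 to 114048704) was in 37 barcodes and 9 chains of the library labelled Healthy, 1 barcode of MTZ-treated and 2 of MTZ-preventive. It was not seen in AS, where 3 counts of 109 barcodes would be 2.75%. Those barcodes held 15 distinct chains, of which 3 would be 20%, so AS could hardly show it. IGHV11-2 took 0.464% of distinct chains in the library labelled Healthy. Its known light chain partner IGKV14-126 was in 32 of 36 of the Healthy-labelled barcodes that had a light chain. Among all members with a light chain there, these included, it was in 38 of 2003 (1.90%). Of the 32, 24 held 1 chain and 6 another, so they are not independent pairings. IGHV11-2 also came with IGKV3-7, IGKV4-57, IGKV5-48 or IGKV10-94, each in a chain of 1 barcode. The chains below are its large chain and the only nucleotide chains that 2 libraries shared, the first of these in the library labelled Healthy and MTZ-treated and the second in the library labelled Healthy and MTZ-preventive.
IGHV11-2, 24 barcodes of Healthy: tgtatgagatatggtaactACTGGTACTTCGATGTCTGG
IGHV11-2, shared with MTZ-treated: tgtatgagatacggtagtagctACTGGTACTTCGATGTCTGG
IGHV11-2, shared with MTZ-preventive: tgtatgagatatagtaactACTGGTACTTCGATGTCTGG

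Each shared chain was in 1 barcode of each library, with IGKV14-126, and none of the barcodes was shared. They held 19 and 4 UMIs for the first chain and 7 and 15 for the second. Another chain, of IGHV3-6 with IGHJ3 and 8 amino acids, was shared by the library labelled Healthy and MTZ-preventive as protein but with different nucleotides. AS shared no chain with any library.

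IGHV12-3 (chromosome 12, 114366526 to 114366819) was in 4 barcodes and 4 chains of the library labelled Healthy, 6 barcodes and 4 chains of MTZ-treated, and 12 barcodes and 3 chains of MTZ-preventive. It was not seen in AS. The MTZ-treated barcodes had 1 UMI each except for 1 with 3 UMIs, and the MTZ-preventive ones had up to 35. All 7 chains of the MTZ groups had IGHJ1, 14 amino acids and the whole J end as printed above. In the library labelled Healthy 2 of 4 chains had IGHJ1. IGKV4-91, the usual partner of IGHV12-3, was in 5 of 6 of its MTZ-treated and 10 of 12 of its MTZ-preventive barcodes. All members with a light chain, these included, had it in 12.2% and 1.96%. In MTZ-preventive 9 of the 10 barcodes held 1 chain. In AS the same light chain gene was in 35 of 109 members (32.1%), all with other V genes. Of these, 29 held 1 IGHV1-26 chain with IGHJ1 and 6 held 1 IGHV1-26 chain with IGHJ4. The 7 chains are shown to let their likeness be seen.
MTZ-treated IGHV12-3, 2 barcodes: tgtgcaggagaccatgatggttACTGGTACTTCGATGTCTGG
MTZ-treated IGHV12-3, 2 barcodes: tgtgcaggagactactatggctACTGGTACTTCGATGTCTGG
MTZ-treated IGHV12-3, 1 barcode: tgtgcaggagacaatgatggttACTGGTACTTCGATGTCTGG
MTZ-treated IGHV12-3, 1 barcode: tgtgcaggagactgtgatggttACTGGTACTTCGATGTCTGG
MTZ-preventive IGHV12-3, 10 barcodes: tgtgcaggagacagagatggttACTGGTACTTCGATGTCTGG
MTZ-preventive IGHV12-3, 1 barcode: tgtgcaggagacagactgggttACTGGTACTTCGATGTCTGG
MTZ-preventive IGHV12-3, 1 barcode: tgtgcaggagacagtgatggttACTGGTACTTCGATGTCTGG

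The pairs of chains that differed by 1 base within a library were few and all of these genes. They were 3 chains of IGHV11-2 in the library labelled Healthy and 2 each of IGHV12-3 in MTZ-treated and MTZ-preventive, and there were none in AS. IGHV11-1 was not seen. IGHV7-1, the T15 gene of natural antibodies to phosphorylcholine, gave 4 chains in the library labelled Healthy and 4 in MTZ-preventive, each in 1 barcode.

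The gene expression of barcodes with IGHV11-2 or IGHV12-3 could be read in 41 barcodes of the library labelled Healthy. Bhlhe41, a transcription factor of B-1a cells, had a UMI in 19.5% of them (8.82 to 34.9) against 4.17% of members with other V genes (3.33 to 5.14), and Zbtb32 in 7.32% (1.54 to 19.9) against 0.251%. Fcer2a, the low-affinity IgE receptor (CD23) of follicular B cells, went the other way at 9.76% against 33.6%, and Cr2 (CD21) at 0 of 41 against 11.5%. Cd5, a surface marker of B-1a cells, was in 1 of 41 against 24 of 1992. Jchain was in 24 of the 41, all of the IGHV11-2 chain of 24 barcodes. Some genes of other cell types were more frequent too, with the fibroblast genes Col1a1 in 75.6% against 10.3% and Dcn in 70.7% against 6.73%, and Pecam1 in 36.6% against 12.7%. The endothelial gene Cdh5 was in only 2 of 41 (4.88%, 0.596 to 16.5) against 1.76%. With chains of 5 or more barcodes left out, 11 barcodes remained, with Bhlhe41 in 3 (27.3%, 6.02 to 61.0), Zbtb32 in 2, Fcer2a in 3, Col1a1 in 2, Pecam1 in 1, and Jchain, Cd5 and Dcn in none. In MTZ-preventive, 1 of 14 barcodes with IGHV11-2 or IGHV12-3 had a Bhlhe41 UMI and none had Fcer2a, against 2.79% and 11.6% of all its members. Of the 14, 10 held 1 IGHV12-3 chain, so they are not independent and could hardly show a difference. MTZ-treated gave 6 such barcodes and AS none.

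IGHD constant regions were named for 17.6% (15.9 to 19.3) of members of the library labelled Healthy, 2.75% of AS (3 of 109), 8% of MTZ-treated (4 of 50) and 18.2% (15.9 to 20.8) of MTZ-preventive. They were found in chains of 1 barcode at 18.4% and 20.4% in the 2 large libraries, and in chains of 5 or more barcodes at 3.45% (3 of 87) and 0 of 90. V usage differed between the constant genes in MTZ-preventive over distinct chains, a chain with both counted under each, where IGHV1 was in 71.0% of 183 IGHD chains and 54.0% of 721 IGHM chains, a difference of 17.1 points (9.25 to 24.2). The library labelled Healthy had 57.8% of 358 and 59.2% of 1590 (difference -1.42, -7.12 to 4.14). Its IGHD minus IGHM differences were -6.03 points for IGHJ4 (-10.7 to -0.887) and 2.55 for IGHV3 (0.00859 to 5.85). In MTZ-preventive those were -0.963 (-7.75 to 6.57) and -1.44 (-3.96 to 2.48). These genes are a selection from all families and J genes, and the intervals do not allow for that choice. The contig files name 1 constant gene a contig, so a cell that makes both is counted under only 1 of them.

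D genes were named for few chains, 20.7%, 1.83%, 8% and 16.9% of barcodes. Among the chains with one, IGHD1-1 led with 34.1% of 408 in the library labelled Healthy (29.5 to 38.9) and 40.5% of 168 in MTZ-preventive (33.0 to 48.3), followed by IGHD2-4 with 16.2% and 11.9%. IGHD4-1 had 9.80% and 11.9%.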

How the data were processed

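Productive heavy chain contigs were read from the V(D)J tables that the authors deposited. The sources used here name Cell Ranger 5.0.0, STAR and mm10 in the submitters' processing notes, and the V(D)J reference is not given in them. The deposited values were UMI counts and read counts per contig, and UMI counts per gene and barcode. Contig tables were already filtered by the authors' pipeline. For each barcode the contig with most UMIs was kept (ties, in 20 barcodes of the library labelled Healthy and 1 of MTZ-preventive, were broken by reads). Shares were given exact Clopper-Pearson 95% intervals and differences Newcombe intervals, with no test. Named V genes were the 5 most used per library by distinct chains, ties in alphabetical order, and a list of B-1 and D-proximal genes. Sequences come from the deposited CDR3 nucleotides. V gene positions were matched by symbol to RefSeq (GRCm38.p6). The study's limits on barcodes were over 200 genes and 1000 UMIs, complexity over 0.7, under 10% mitochondrial and 5% haemoglobin UMIs. The members and lists were chosen with earlier results of these data known. Contig choice and intervals were tested on simulated data. Python 3.11.15, pandas 2.3.3 and scipy 1.17.1 were used. The 10 alternatives planned were a minimum of 3 UMIs, 2 barcode filters, removal of doublets, a light chain, IGHM alone, all constant genes, no shared chains and 2 ways of counting distinct chains.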

Additional observations from a re-analysis of the deposited data

How the results depend on the processing

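Shares were called moved when an alternative fell outside the 95% interval of the reported share, and differences likewise. IGHV1 and IGHJ2 shares and their differences stayed within that interval in 148 of 216 comparisons with an alternative. Mean CDR3 length lay between 14.2 and 14.7 for the library labelled Healthy, between 12.01 and 15.4 for AS, between 13.6 and 14.1 for MTZ-treated and between 13.7 and 14.1 for MTZ-preventive. With at least 3 UMIs a contig, IGHV1 was 51.3% in the library labelled Healthy, 96.3% in AS (27 barcodes, 4 chains), 7.14% in MTZ-treated (14 barcodes) and 49.3% in MTZ-preventive, and IGHJ2 was 7.14% in MTZ-treated and 35.4% in MTZ-preventive. The IGHV1 differences were then 44.9 points for AS minus the library labelled Healthy, -89.2 for MTZ-treated minus AS and -47.0 for MTZ-preventive minus AS, and the IGHJ2 differences 3.44 for MTZ-treated minus AS, 31.7 for MTZ-preventive minus AS and 28.2 for MTZ-preventive minus MTZ-treated.

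With every constant gene, IGHV1 was 59.3% in the library labelled Healthy and 75% in AS, and IGHJ2 was 42.0%, 44.1% and 12.7% in the library labelled Healthy, AS and MTZ-treated. The IGHV1 differences were 15.7 (AS minus Healthy) and -6.08 (MTZ-preventive minus Healthy). IGHJ2 reversed to 2.06 for AS minus Healthy, -31.4 for MTZ-treated minus AS and -13.8 for MTZ-preventive minus AS, and was -11.8 for MTZ-preventive minus Healthy. Per distinct chain, by protein or by nucleotides, IGHV1 was 73.3% and IGHJ2 26.7% in AS, the IGHV1 differences were 14.3 (AS minus Healthy), -43.9 (MTZ-treated minus AS) and -16.0 (MTZ-preventive minus AS), and the IGHJ2 differences -3.52, 3.11 (MTZ-preventive minus AS) and -5.52 (MTZ-preventive minus MTZ-treated).

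Barcodes in the gene expression matrix gave IGHJ2 at 25% in AS, with differences of -6.28 (AS minus Healthy), 6.25 (MTZ-treated minus AS) and 7.26 (MTZ-preventive minus AS). Barcodes within the study's limits gave IGHV1 at 39.1% in MTZ-treated and IGHJ2 at 36.4% in AS (11 barcodes). IGHV1 differences were -42.7 (MTZ-treated minus AS) and 15.9 (MTZ-preventive minus MTZ-treated), and IGHJ2 reversed to 5.35, -5.93 and -4.53 in the 3 comparisons with AS. IGHM alone gave IGHV1 at 52.4% in MTZ-preventive.

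A pair of alternatives was chosen after seeing the data. Barcodes with a Cd79a UMI (7 in AS) gave AS 71.4% IGHV1 and 57.1% IGHJ2, IGHV1 differences of 13.2, -38.1 and -13.7 for AS minus Healthy, MTZ-treated minus AS and MTZ-preventive minus AS, IGHJ2 differences reversed to 26.5, -20.1 and -26.0, and -5.92 for MTZ-preventive minus MTZ-treated. Without chains of 5 or more barcodes, AS (14 barcodes) had 71.4% IGHV1 and 35.7% IGHJ2, with IGHV1 differences of 12.4, -42.9 and -14.3 and IGHJ2 differences reversed to 5.57, -1.43 and -5.70. Other shares moved in 89 of 444 comparisons in AS, 40 in MTZ-treated, 25 in the library labelled Healthy and 24 in MTZ-preventive. The cause of these moves was not tested. Several alternatives kept fewer chains, while every constant gene kept more (21 against 15 in AS). The number of distinct chains limits AS and MTZ-treated most, at 15 and 34. No paired analysis was possible because each group has 1 library and no test was made.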

Other observations

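Heavy chains with switched constant genes, which the counts above leave out, came from 6 to 8 distinct chains in 3 libraries and from 32 in MTZ-preventive. In the library labelled Healthy, 480 barcodes held 7 distinct chains, and an IGHV1-81 chain with IGHJ2 and IGHG2B took 328 of them (68.3%), an IGHV8-8 chain with IGHJ2 and IGHA 92, and an IGHV3-5 chain with IGHJ4 and IGHG2C 56, the last with up to 923 UMIs in a barcode. In AS, 178 barcodes held 6 chains, with an IGHV1-42 chain of IGHG2B in 119 and an IGHV5-12 chain of IGHA in 55. In MTZ-treated, 74 barcodes held 8 chains, with IGHA chains of IGHV6-3 in 35 and IGHV5-4 in 29. In MTZ-preventive, 85 barcodes held 32 chains, with an IGHV2-9-1 chain of IGHG2C in 50.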
